A study of Mus musculus with 9 samples.

Results

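The dividing large pre-B cells of the bone marrow were taken as the barcodes that carried B-lineage and division transcripts together and lacked those of the stages on either side. A barcode was a member when its UMIs numbered 1000 or more, its genes 500 or more, and its mitochondrial UMIs no more than 10% of the total, and when the UMIs of *Cd79a*, *Cd79b*, and *Vpreb3* summed to at least 3 and those of *Mki67* and *Top2a* to at least 2. Members had 0 UMIs of *Dntt*, *Ighd*, and *Siglech*, which left out pro-B cells (terminal transferase, *Dntt*), IgD-positive B-cells, and plasmacytoid dendritic cells as far as these transcripts were captured. This gave 3045 members of 39051 barcodes that passed the quality limits. A UMI is a molecular identifier, so that each counted RNA molecule is counted once.

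The members came from the femur bone marrow of 9 female mice aged 9 to 10 weeks, 3 each of NZB, NZW, and NZBWF1, with 1 library per mouse and none of the strains treated. NZB and NZW are inbred parent strains, and NZBWF1 is their F1 hybrid, which develops a disease resembling systemic lupus erythematosus as it ages. Red blood cells were lysed during preparation, the cells were not sorted, and no protein was measured.

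Large pre-B cells are the stage at which a productive heavy chain is first tested. The heavy chain pairs with the surrogate light chain, made of VpreB and lambda5 (*Igll1*), and this pre-B receptor signals through Ig-alpha and Ig-beta (*Cd79a*, *Cd79b*) and the kinase Syk, together with the interleukin-7 receptor, to drive a burst of division. The cells then stop dividing, lose the surrogate light chain, raise the RAG recombinase again, and rearrange the light chain genes as small pre-B cells.

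The members exhibited the transcripts of their label, with a reservation on the surrogate light chain. The mean summed level over the 9 mice was 726 CPM (UMIs of a gene per 1000000 UMIs of the members) for *Cd79a*, 745 for *Cd79b*, 1698 for *Vpreb3*, 1239 for *Mki67*, and 1385 for *Top2a*, all of which the selection itself used. In the barcodes without the B-lineage sum these genes were at 5.34, 20.3, 4.07, 373, and 352 CPM. Genes that played no part in the selection were likewise higher in members than in these barcodes. They included *Ebf1* (1229 against 10.9 CPM) and *Pax5* (272 against 2.26), both B-lineage transcription factors, *Igll1* (321 against 1.97), and *Ighm* (5760 against 1481). These genes mark the B lineage and do not set members apart from the pro-B barcodes described below. Those had more *Ebf1* and *Igll1* than members in every mouse, once barcodes with signs of another lineage were left out. However, 1855 members (60.9%) had 0 UMIs of both *Vpreb1* and *Igll1*, and no cell size was measured, so that "large" rests on the label. The median member had 2711 UMIs (range 1006 to 27101) and 1353 genes. Barcodes with the same B-lineage sum but 0 UMIs of *Mki67*, *Top2a*, *Dntt*, and *Ighd* had a median of 1361 UMIs. The selection asks for division UMIs in members and for none in these barcodes, which by its making favors deeper members, so that nothing is read from this about cell size.

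Barcodes sat on both sides of the limits of the selection. A B-lineage sum of exactly 3 was found in 76 members and a sum of 2 in 124 otherwise eligible barcodes. A *Mki67* and *Top2a* sum of 2 was found in 223 members and a sum of 1 in 386 barcodes. Barcodes that met both sums but carried *Dntt*, without *Siglech*, numbered 414, of which 96.4% carried *Vpreb1* or *Igll1*. Those that carried *Ighd*, without *Dntt*, numbered 511, of which 40.51% did, beside 39.1% of all members. Members at the limits carried *Vpreb1* or *Igll1* less often than those barcodes excluded by *Dntt*, between 16.9% (B-lineage sum of 4) and 42.1% (division sum of 3).

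Part of the members carried RNA of another lineage, which was counted before any comparison. Neutrophil genes made up at least 1% of the UMIs in 304 members (9.98%), 92 had at least 5 UMIs of the granulocyte precursor genes *Mpo*, *Elane*, and *Prtn3*, and 54 had at least 5 UMIs of *Car1*, an erythroid gene. With monocyte, T and NK, globin, and plasma cell (*Jchain*) transcripts added, 492 members (16.2%) had a sign of another lineage. Per strain these were 18 ± 5.96% in NZB, 16.2 ± 2.84% in NZW, and 15.4 ± 3.66% in NZBWF1 (SD, n = 3, exact permutation p = 0.739 over the 3 strains). A score from simulated doublets marked 247 members (8.11%), which were kept in the main analysis: 2.92 ± 3.64% in NZB, 8.83 ± 1.004% in NZW, and 8.24 ± 0.900% in NZBWF1 (exact permutation p = 0.0179). The summed neutrophil markers ranged from 19027 to 43333 CPM over the mice, and from 207 to 1058 CPM without the 492 members. The same barcode sequence was kept in another library for 20 members. Library totals of the members ran from 206879 UMIs (NZB mouse 1) to 2666786 (NZBWF1 mouse 3), with all 3 NZB libraries at the low end.

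Dividing pre-B cells were a smaller share of the marrow in NZB mice than in the other strains. The 3 NZB mice had 53, 171, and 100 members, or 2.16, 3.35, and 3.05% of their kept barcodes. The NZW mice had 387, 575, and 382 members, or 8.98, 11.2, and 7.72%. The NZBWF1 mice had 164, 434, and 779 members, or 6.39, 7.82, and 13.7%. No NZB mouse reached the lowest mouse of either other strain, whereas NZW and NZBWF1 overlapped. The mean shares came to 2.85 ± 0.618% in NZB, 9.29 ± 1.75% in NZW, and 9.30 ± 3.88% in NZBWF1 (SD, n = 3, exact permutation p = 0.0429 over the 3 strains, smallest possible 0.00357). In the edgeR fit of cell numbers, NZBWF1 was higher than NZB by 1.70 on the log2 scale (SE 0.334, adjusted p = 0.00479), NZB was lower than NZW with a log2 fold change of -1.70 (SE 0.334, adjusted p = 0.00487), and the difference between NZBWF1 and NZW was 0.005 (SE 0.321, adjusted p = 0.998). Against the mean of its parents on the log2 scale NZBWF1 was higher by 0.85 (SE 0.272, adjusted p = 0.0319), which was lost when NZBWF1 mouse 3 was left out (0.46, adjusted p = 0.168), and likewise without NZB mouse 1 or 3 or NZW mouse 2 or 3.

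**Figure D1:**
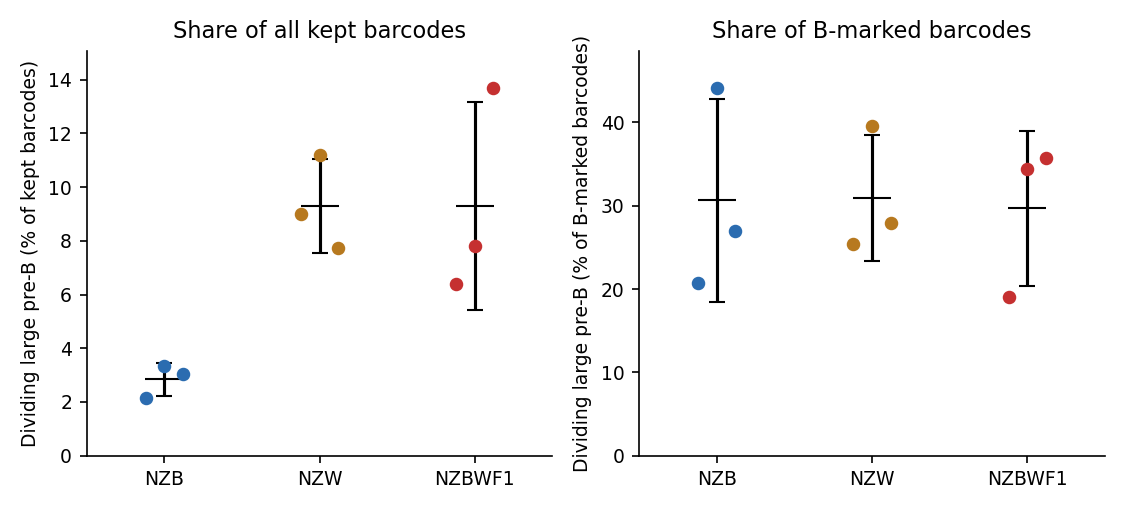
Each point is a mouse, the dash its strain mean, and the whisker 1 SD over 3 mice. The left panel gives dividing pre-B cells in percent of all kept barcodes and the right panel in percent of barcodes with the B-lineage sum. NZB sits near 2.85% on the left, below all other mice, while on the right all 3 strains lie near 30%.

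Within the B lineage the shares of dividing pre-B cells overlapped. Of barcodes with a B-lineage sum of at least 3, members made up 20.7, 44.2, and 27.0% in NZB, 25.4, 39.5, and 27.9% in NZW, and 19.0, 34.4, and 35.7% in NZBWF1. The mice of the 3 strains were interleaved (exact permutation p = 0.986). With these barcodes as the total, the log2 difference between NZBWF1 and NZB was -0.05 (SE 0.394, adjusted p = 0.930). Whether B-lineage cells were fewer in NZB or other marrow cells more numerous cannot be told apart from shares.

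Placed between the neighboring stages, dividing pre-B cells had less of the surrogate light chain than pro-B barcodes, as an average over members with and without it. Whether the selection also took in later dividing B-lineage cells was not tested. Pro-B barcodes were those with the B-lineage sum, at least 1 UMI of *Dntt*, and 0 of *Siglech*. Resting barcodes were those with the B-lineage sum and 0 UMIs of *Dntt*, *Ighd*, *Mki67*, *Top2a*, and, in this comparison, *Siglech*. No limit on *Mki67* and *Top2a* was set for pro-B barcodes, and 414 of all 952 met the division sum. Pro-B against dividing is therefore no contrast of resting with dividing cells. Without barcodes bearing signs of another lineage, 815 pro-B, 2553 dividing, and 2402 resting barcodes were summed per mouse. *Vpreb1* was at 2639 ± 599 CPM in pro-B, 450.4 ± 66.3 in dividing pre-B, and 240.0 ± 140 in resting barcodes (SD, n = 9), and was lower in dividing than in pro-B barcodes in 9 of 9 mice. *Igll1* followed the same order at 1785, 403, and 140 CPM. *Rag1*, a subunit of the recombinase, was lowest in the dividing barcodes on average, at 199, 31.4, and 130 CPM. It was below the pro-B level in 9 of 9 mice and below the resting level in 7 of 9, all but NZB mice 2 and 3. The stages were defined by transcripts of the same cells, so these values are a description without a test.

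Other genes rose along the same order or peaked in the dividing cells. *Ighm*, the mu heavy chain, was at 2235, 3915, and 7018 CPM in pro-B, dividing, and resting barcodes, *Igkc*, the kappa light chain, at 435, 1154, and 8004 CPM, and *Dnajc7*, a co-chaperone, at 240, 549, and 1455 CPM. Each was in this order in 9 of 9 mice. *Cd24a*, the heat-stable antigen used to stage B-cell precursors, was highest in dividing cells at 606, 1443, and 673 CPM, as was *Irf4*, a transcription factor of the pre-B transition, at 52.3, 150, and 102 CPM, and *Tfrc*, the transferrin receptor, at 44.3, 80.1, and 47.1 CPM, all 3 in 9 of 9 mice. *Bach2*, a transcriptional repressor, was above the pro-B level in 9 of 9 mice (155 against 530.3 CPM) and above the resting level in 6 of 9. *Bcl2*, which protects from apoptosis, was lowest in dividing cells at 45.2, 21.2, and 131 CPM, below the resting level in 9 of 9 mice.

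**Figure D2:**
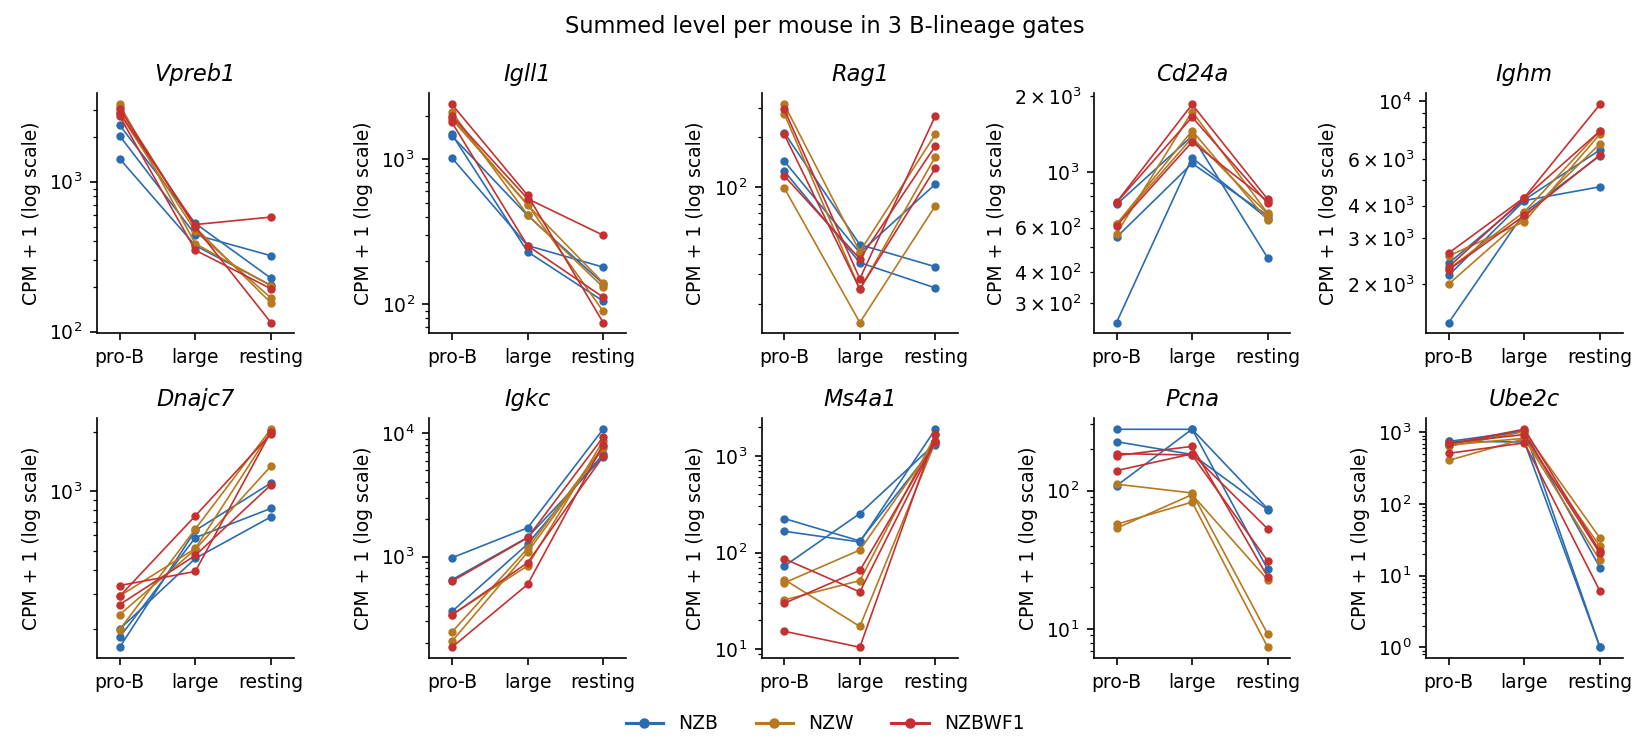
Summed CPM plus 1 on a log axis in pro-B, dividing (large), and resting barcodes, with 1 line per mouse colored by strain, for 10 genes. *Vpreb1* falls from a mean of 2639 to 450.4 CPM between the first 2 gates in every mouse, and *Igkc* climbs from 435 to 8004 CPM. *Rag1* dips in the dividing gate in all but NZB mice 2 and 3, where it is lowest in the resting gate.

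Genes of mitosis and of S phase were among the largest differences between dividing and resting barcodes. Of 3810 genes with at least 50 CPM in either gate, 978 were higher and 624 lower in dividing barcodes in 9 of 9 mice. Leading on the higher side, besides the genes of the selection, were *Nusap1*, which binds spindle microtubules (438 against 1.92 CPM), *Pbk*, a mitotic kinase (235 against 2.19), the histone gene *Hist1h2ap* (1113 against 15.0), *Esco2*, which acts on cohesion between sister chromatids in S phase (204 against 2.23), *Prc1*, which bundles the midzone of the spindle (334 against 4.33), *Mxd3*, a partner of Max (85.2 against 0.426), and *Ube2c*, a ubiquitin-conjugating enzyme of the anaphase-promoting complex (918 against 14.4). Leading on the lower side were genes of antigen presentation and maturation, as *H2-DMb2* (2.73 against 183 CPM), *Cd83* (1.73 against 66.7), *Itgb7* (2.10 against 55.4), and *Ltb* (37.6 against 679), with *Kdm5b*, a histone demethylase, at 2.74 against 69.6. *Kdm5b* was low against pro-B barcodes also, where it was at 53.1 CPM, in 9 of 9 mice.

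The promoters of these division genes are shown because their transcripts moved together. The sequences are from RefSeq (build GRCm38.p6, plus strand of each gene) and run from 250 bases before to 50 after the start. Capitals mark CCAAT, the box bound by NF-Y, and TTTGAA, the core of the cell cycle homology region, on either strand, and neighboring matches can overlap. *Prc1* (chr7:80294201-80294500) held both, *Ube2c* (chr2:164769679-164769978) held 6 CCAAT matches and 1 TTTGAA match, and *Nusap1* (chr2:119618048-119618347) held neither in this window.
Prc1: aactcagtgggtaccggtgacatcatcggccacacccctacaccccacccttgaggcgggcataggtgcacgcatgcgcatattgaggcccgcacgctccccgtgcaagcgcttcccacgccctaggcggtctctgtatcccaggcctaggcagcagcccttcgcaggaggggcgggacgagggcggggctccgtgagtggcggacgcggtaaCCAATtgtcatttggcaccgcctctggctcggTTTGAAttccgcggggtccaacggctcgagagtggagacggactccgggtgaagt
Ube2c: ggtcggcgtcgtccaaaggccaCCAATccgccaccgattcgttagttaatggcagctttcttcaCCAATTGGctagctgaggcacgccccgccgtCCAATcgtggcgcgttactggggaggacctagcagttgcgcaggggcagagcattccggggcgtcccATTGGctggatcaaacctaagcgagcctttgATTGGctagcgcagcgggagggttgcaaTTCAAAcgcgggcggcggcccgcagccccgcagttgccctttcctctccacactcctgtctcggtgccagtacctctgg
Nusap1: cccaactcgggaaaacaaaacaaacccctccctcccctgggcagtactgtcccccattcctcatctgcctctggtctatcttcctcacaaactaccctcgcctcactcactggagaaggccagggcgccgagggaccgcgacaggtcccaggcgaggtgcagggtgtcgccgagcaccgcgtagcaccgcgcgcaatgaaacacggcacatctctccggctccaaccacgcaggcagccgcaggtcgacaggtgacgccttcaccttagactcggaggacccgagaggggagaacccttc

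Over the 34 genes of the G2 and mitosis list with a promoter entry, 26 (76.5%) held CCAAT, 26 (76.5%) held TTTGAA, and 21 (61.8%) held both. The 28 genes of the S phase list with an entry held CCAAT in 57.1%, TTTGAA in 10.7%, and both in 7.14%. Over all 32851 promoters of the same length the shares were 37.4, 17.9, and 6.95%. A match describes the letters of the window, and nothing is read from it about binding.

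Members carried S phase and G2 and mitosis transcripts in varying proportion. All 40 genes of the G2 and mitosis list and 33 of 35 genes of the S phase list were higher in dividing than in resting barcodes in 9 of 9 mice, with a median ratio of 24.6 and 4.93, while the selection on *Mki67* and *Top2a* favors G2 and mitosis by its making. After each member had been thinned to 1000 UMIs, 1084 members (35.6%) had more S phase UMIs and 1859 (61.1%) more G2 and mitosis UMIs, and 6 had neither. The S phase genes took 0.572, 0.621, and 0.631% of the UMIs in NZB, 0.672, 0.692, and 0.600% in NZW, and 0.736, 0.635, and 0.597% in NZBWF1. The G2 and mitosis genes took 0.896, 1.24, and 1.07% in NZB, 1.002, 0.984, and 1.103% in NZW, and 0.929, 0.983, and 1.20% in NZBWF1. The strains overlapped in both (exact permutation p = 0.489 and 0.921, adjusted over 3 measures 0.734 and 0.921).

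**Figure D3:**
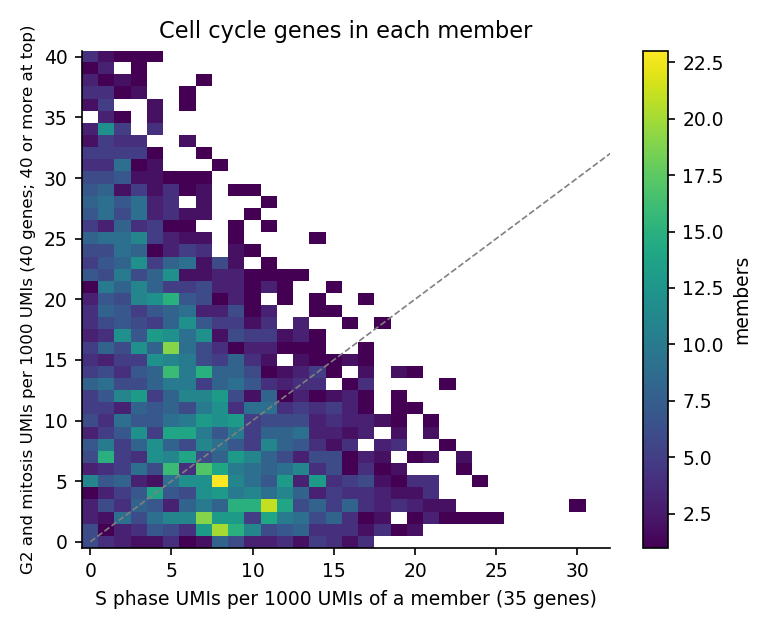
Number of members (color) at each combination of S phase UMIs (horizontal axis, 35 genes) and G2 and mitosis UMIs (vertical axis, 40 genes, 40 or more drawn at the top), each member thinned to 1000 UMIs. The dashed line marks equal numbers, and 1859 of the 3045 members lie above it.

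Median UMIs per member were 2570, 1936, and 2274.5 in NZB, 3265, 2709, and 2881 in NZW, and 3727, 2699, and 2406 in NZBWF1. All NZB mice were below all NZW mice, but NZBWF1 spanned both (exact permutation p = 0.207, adjusted 0.621).

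Surrogate light chain transcripts were detected in part of the dividing pre-B cells. At 1000 UMIs per member, 26.2% had a UMI of *Vpreb1* or *Igll1* (39.1% without thinning). In a gate of 13739 neutrophils, which should lack them and were not thinned (median 2516 UMIs), 0.597% did. By mouse the shares came to 20.8, 24, and 30% in NZB, 30.5, 29.6, and 24.1% in NZW, and 31.1, 33.9, and 17.7% in NZBWF1, without order among the strains (exact permutation p = 0.761, adjusted over 14 measures 0.946). *Igkc* was found in 57.1% of thinned and 81.2% of unthinned members (11.6% of neutrophils), *Ighm* in 93.2 and 99.6% (10.5%), *Ebf1* in 71.6 and 93.7% (1.02%), and *Il7r* in 32.8 and 61.1% (0.706%). The shares with *Ms4a1*, the mature B-cell antigen CD20, were 11.3, 5.85, and 7% in NZB, 1.03, 3.30, and 5.50% in NZW, and 1.22, 3.69, and 1.67% in NZBWF1, each NZB mouse above all others, but the difference missed the adjusted threshold (exact permutation p = 0.0321, adjusted 0.225). Without thinning, the *Ms4a1* share was 7.39% of members and 0.502% of neutrophils.

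Members were split by whether a surrogate light chain transcript was detected at 1000 UMIs. Among members without signs of another lineage, 729 were positive (median 3781 UMIs) and 1824 negative (median 2193.5 UMIs), and their full counts were summed per mouse. The split marks detection, as the negative members still had 130.3 CPM of *Vpreb1* and 122 of *Igll1* in these sums, against 933 and 808 in the positive ones. Of 3475 genes with at least 50 CPM in either sum, 330 were higher and 431 lower in positive members in 9 of 9 mice. *Vpreb2*, a second VpreB gene that was not used for the split but shares most of its sequence with *Vpreb1*, was at 128 ± 63.5 against 18.2 ± 12.4 CPM. *Myc*, the growth regulator, was at 66.6 against 16.9 CPM, *Cdk6*, a kinase of G1, at 335 against 117, and *Ccnd2*, its cyclin partner, at 178 against 67.1. The nucleolar and polyamine genes *Gnl3* (151 against 55.1 CPM) and *Srm* (105 against 36.8) moved the same way, and so did *Lef1*, a transcription factor of early B cells (238 against 99.6). The 11 glycolysis genes with a mean of at least 10 CPM in either sum together came to 2874 ± 335 against 1785 ± 272 CPM, higher in positive members in 9 of 9 mice, with *Ldha*, lactate dehydrogenase, at 590.1 against 254 CPM.

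Other genes were higher in the members without a detected surrogate light chain UMI. *Igkc* was at 1676 ± 524 CPM in negative and 382 ± 139 in positive members, *Cd74*, the invariant chain of antigen presentation, at 531 against 69.9, and *Ms4a1* at 140 against 9.00. *Klf2*, a quiescence factor, was at 266 against 59.0 CPM, *Bcl2l1*, a survival gene, at 95.4 against 34.1, *Btg2*, which restrains division, at 222 against 84.1, and *Dnajc7* at 771 against 221. Each was lower in positive members in 9 of 9 mice. The 40 G2 and mitosis genes with a mean of at least 10 CPM summed to 13804 ± 1775 CPM in negative and 9329 ± 970.2 in positive members, higher in negative members in 9 of 9 mice, whereas the 35 S phase genes summed to 7077 ± 466 against 7291 ± 470 CPM and were higher in positive members in 5 of 9. The split was made on the same counts and the positive members were deeper, so that no test was made, and the part of depth in these differences was not tested. The selection also set a fixed minimum of *Mki67* and *Top2a* UMIs, which asks for a higher CPM in shallower members. These genes were at 1726 and 1988 CPM in negative and 1110 and 1181 in positive members. The part of this in the G2 and mitosis sum was not tested.

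**Figure D4:**
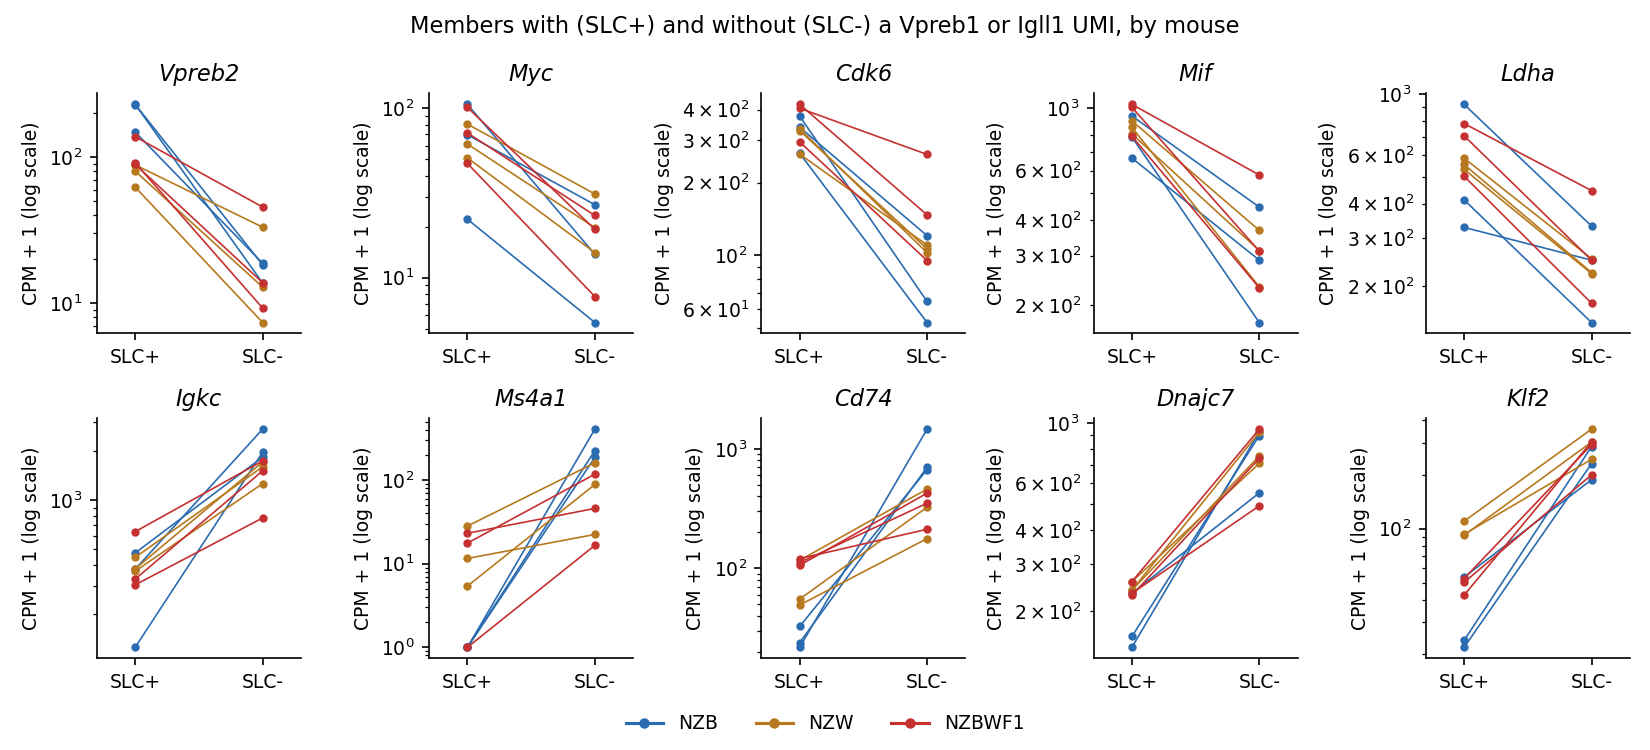
Summed CPM plus 1 on a log axis in members with (SLC+) and without (SLC-) a *Vpreb1* or *Igll1* UMI after thinning, with 1 line per mouse colored by strain. *Myc*, *Cdk6*, *Mif*, and *Ldha* fall from left to right in every mouse, and *Igkc*, *Ms4a1*, *Cd74*, *Dnajc7*, and *Klf2* climb.

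In the pseudo-bulk comparison of strains, few genes were differentially expressed in dividing pre-B cells. UMIs were summed over the members of each mouse and 8927 genes were fitted by the edgeR quasi-likelihood method. In NZBWF1 12 genes were higher (0.134% of those tested) and 3 lower (0.0336%) than the parents' mean, 0.168% in all. This mean was taken of the log values, which for parents far apart lies below the mean of their CPM. Of the 12 genes, 6 were above and 6 below the mean of the parents' CPM, and the 3 lower genes were below both. Compared with NZB, 15 were higher (0.168%) and 22 lower (0.246%), 0.414% in all, and compared with NZW 28 were higher (0.314%) and 25 lower (0.280%), 0.594% in all. Between the parents 97 genes were higher (1.09%) and 78 lower (0.874%) in NZB than in NZW, 1.96% in all. Without the members bearing signs of another lineage the 4 comparisons called 11, 28, 56, and 160 genes, of which 10, 21, 42, and 126 were among those called with all members. Single mice moved these numbers. Against the parents' mean 8 genes were called without NZB mouse 3 or NZBWF1 mouse 2. Against NZB 77 were called without NZBWF1 mouse 3, 24 without NZB mouse 2 or NZW mouse 2, 15 without NZB mouse 3, and 13 without NZBWF1 mouse 2. Against NZW 33 were called without NZBWF1 mouse 2, 29 without NZW mouse 1, and 26 without NZW mouse 2, and between the parents 112 without NZB mouse 3. These comparisons share mice, so that the calls are not independent of each other. Separation of the mice without overlap was far more frequent than a call. Between the parents it was found in 18.7% of the tested genes. With the hybrid set beside a parent, the share was 13.9% (NZB) and 12.0% (NZW). Where single genes are described below as without overlap, this alone is weak evidence of a strain difference. In a sum over cells, fewer cells expressing a gene and less RNA per cell cannot be told apart.

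The pre-B receptor and its signaling chain held 1 called gene in the 4 comparisons. Of the 15 genes in this list, 3 had chosen the members and 12 were tested, of which 1 was called, *Syk* in NZB against NZW, against 1.96% of all genes. The median log2 fold change of the list was -0.06 for NZBWF1 against the parents, beside 0.01 over all genes, and 0.09 for NZB against NZW, beside -0.01. *Syk*, the kinase that carries the receptor signal, was at 283, 243, and 211 CPM in NZB, 378, 348, and 388 in NZW, and 306, 214, and 317 in NZBWF1. All NZB mice were below all NZW mice, with a log2 fold change of -0.62 (SE 0.149, adjusted p = 0.0157), but the call was lost without the members with signs of another lineage (-0.46, adjusted p = 0.135) and in 10 of 22 alternatives in all, among them without NZB mouse 2 or 3 or NZW mouse 1 or 3. *Vpreb1* ranged from 280.3 to 442 CPM over the 9 mice and *Igll1* from 165 to 493, with the 3 NZB mice of *Igll1* at 165, 205, and 253 CPM (NZB against NZW -0.86, SE 0.398, adjusted p = 0.489). *Lyn*, *Blk*, *Btk*, *Blnk*, and *Plcg2*, further kinases, an adaptor, and a phospholipase of the chain, had log2 fold changes between parents from -0.11 (*Blnk*) to 0.20 (*Blk*), none called. The adaptor *Pik3ap1* was low, at 18.4 ± 15.4 CPM in NZB, 11.2 ± 2.03 in NZW, and 7.45 ± 4.67 in NZBWF1, and was not called either (NZB against NZW 0.46, SE 0.531, adjusted p = 0.824).

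Immunoglobulin transcripts varied widely between mice of 1 strain. *Ighm* was at 16142, 3567, and 7088 CPM in NZB, 3228, 3343, and 3171 in NZW, and 3637, 6882, and 5857 in NZBWF1. *Igkc* was at 53066, 1391, and 13274 CPM in NZB, 808, 3264, and 1145 in NZW, and 571, 12634, and 12144 in NZBWF1. The mice high in both were those high in *Jchain*, which marks antibody-secreting cells, with 5564 CPM in NZB mouse 1 and 1473 in NZBWF1 mouse 2 against 2.97 in NZW mouse 1. Members with at least 5 *Jchain* UMIs numbered 15. Without members with signs of another lineage, *Ighm* ranged only from 3472 to 4291 CPM and *Igkc* from 593 to 1707 CPM over the 9 mice. None of the 5 light chain genes passed the test in any comparison.

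The recombination, transcription factor, and interleukin-7 lists held single called genes or none. Among 12 tested V(D)J recombination genes, *Lig4*, the ligase that seals the broken ends, was the one called, in NZB against NZW (1.96% of all genes) and NZBWF1 against NZB (0.414%). It was at 25.8, 15.0, and 14.7 CPM in NZB, 61.7, 63.7, and 69.0 in NZW, and 47.1, 39.0, and 44.8 in NZBWF1, with the hybrid between its parents and no overlap of mice. The log2 fold change was -1.91 for NZB against NZW (SE 0.296, adjusted p = 4.69e-05) and 1.33 for NZBWF1 against NZB (SE 0.315, adjusted p = 0.0438), the second of which was lost in 16 of 21 alternatives, among them without members with signs of another lineage (1.04, adjusted p = 0.256) and with each mouse but NZB mouse 1 left out in turn. All 20 B-lineage transcription factors were tested and none was called, as *Ebf1*, which specifies the lineage (1162 ± 246, 1277 ± 49.8, and 1271 ± 196 CPM in NZB, NZW, and NZBWF1), and *Tcf3*, the E2A gene (391 ± 59.8, 452 ± 1.84, and 482 ± 61.7 CPM). Of 13 tested genes of the interleukin-7 pathway, *Bcl2* was the one called in the same comparisons and against the parents' mean.

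*Bcl2* was higher in the dividing pre-B cells of NZB mice than in both other strains. It was at 118, 35.02, and 58.7 CPM in NZB, 11.3, 10.3, and 13.5 in NZW, and 12.8, 10.5, and 10.2 in NZBWF1. Every NZB mouse was above every other mouse, although the NZB mice themselves spread over a wide range, and the hybrid lay at the NZW level. The log2 fold change was 2.43 for NZB against NZW (SE 0.335, adjusted p = 5.81e-06) and -2.53 for NZBWF1 against NZB (SE 0.340, adjusted p = 1.31e-05), and both calls held under each alternative in which the gene was tested. These levels rest on few UMIs, 23, 14, and 20 in the NZB mice, 19, 21, and 20 in NZW, and 12, 17, and 27 in NZBWF1. A *Bcl2* UMI was found in 1.12% of thinned and 4.07% of unthinned members, against 1.58% of the unthinned neutrophils, and the thinned shares (3.77, 2.34, and 5% in NZB, 0.517 to 1.83% in the other mice) did not pass the adjusted threshold (exact permutation p = 0.025, adjusted 0.225). The summed *Bcl2* level of the neutrophils was 6.50 ± 3.15 CPM (SD, n = 9). The lower level against the mean of the parents (-1.31, SE 0.281, adjusted p = 0.0306) was lost in 11 of 19 alternatives. Without members with signs of another lineage *Bcl2* was at 78.9, 28.1, and 34.4 CPM in NZB and from 5.32 to 12.3 in the other 6 mice. *H2-Ab1*, a class II antigen-presenting chain, was at 247, 235, and 191 CPM in NZB and 91.4, 109, and 115 in NZW (log2 fold change 1.08, SE 0.228, adjusted p = 0.0195), a call that was lost in 6 of 22 alternatives, among them without each NZB mouse. Resting barcodes without signs of another lineage had 147, 275, and 235 CPM of *Bcl2* in NZB, 89.6, 115, and 54.2 in NZW, and 112, 97.2, and 58.6 in NZBWF1, so that NZB was highest in that gate too. The part of more mature members in the *Bcl2* difference was not tested.

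The cell cycle lists held 1 called gene each between the parents, near the 1.96% of all genes, and the summed lists overlapped as given above. Of 35 S phase genes 1 was called, *Pcna*, the sliding clamp of DNA replication, at 227, 160.1, and 203 CPM in NZB, 78.3, 87.7, and 84.6 in NZW, and 184, 160.3, and 148 in NZBWF1. NZW lay below all other mice, and the hybrid was near NZB. The log2 fold change was 1.20 for NZB against NZW (SE 0.159, adjusted p = 2.44e-06) and 0.96 for NZBWF1 against NZW (SE 0.133, adjusted p = 1.40e-05). The list's median log2 fold change for NZB against NZW was -0.12, on the other side of 0. Of 40 G2 and mitosis genes 1 was called, *Cdca3*, a trigger of mitotic entry, at 296 ± 17.3 CPM in NZB and 188 ± 6.59 in NZW (log2 fold change 0.65, SE 0.136, adjusted p = 0.00326). At 5% mitochondrial UMIs the *Pcna* and *Cdca3* calls were lost, and with equal numbers of members per mouse those of *Cdca3* and of *Pcna* in NZBWF1 against NZW. *Cdkn1a*, the p21 inhibitor of the cycle, was at 66.7 ± 19.2 CPM in NZB against 30.8 ± 0.826 in NZW (1.05, SE 0.251, adjusted p = 0.0144), a call lost in 7 of 22 alternatives, among them without NZB mouse 1 or 2 or NZW mouse 2.

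Among glycolysis and surface genes, *Pkm*, pyruvate kinase, was lower in NZB than in NZW (109 ± 19.7 against 186 ± 12.7 CPM, log2 fold change -0.79, SE 0.172, adjusted p = 0.00543), the 1 called gene of 15, against 1.96% of all genes. The call was lost in 5 of 22 alternatives, among them without NZB mouse 2. *Cd24a* was at 855, 941, and 1028 CPM in NZB against 1373, 1529.9, and 1155 in NZW (-0.52, SE 0.130, adjusted p = 0.0266), without overlap, but the call was lost without members with signs of another lineage (-0.37, adjusted p = 0.182) and in 11 of 22 alternatives in all, among them with each NZB mouse or NZW mouse 1 or 2 left out in turn. *Cd24a* and *H2-Ab1* were the called members of 14 tested surface genes, against the same 1.96%.

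Ferritin light chain genes were among the strain differences of smallest p. *Ftl1* (chr7:45457944-45459884), which encodes the iron-storing ferritin light chain, was at 1484, 1413, and 1604 CPM in NZB, 33.8, 45.1, and 48.1 in NZW, and 590.4, 679, and 736 in NZBWF1. *Ftl1-ps1* (chr13:74399694-74407346), a copy annotated elsewhere in the genome, was at 0, 10.0, and 8.81 CPM in NZB, 1002, 1009, and 1064 in NZW, and 475, 517, and 619 in NZBWF1. The 2 genes were mirror images, with the hybrid between the parents in both and no overlap of mice. For NZB against NZW the log2 fold change was 5.15 (SE 0.148, adjusted p = 3.40e-25) for *Ftl1* and -7.08 (SE 0.246, adjusted p = 1.14e-22) for *Ftl1-ps1*, and NZBWF1 was above the mean of its parents' log values by 1.41 (SE 0.105, adjusted p = 4.37e-12) and 2.61 (SE 0.172, adjusted p = 3.09e-13). In CPM the hybrid was near the mean of its parents, at 668 against 771 for *Ftl1* and 537 against 516 for *Ftl1-ps1*.

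The sequences of the ferritin copies are shown because reads must be told apart at single bases. The GENCODE vM21 transcripts of *Ftl1* and *Ftl1-ps1* differed at 4 of 910 aligned bases (99.6% identity), with a longest run of 524 bases without a difference, and those of *Tpm3*, a tropomyosin, and *Tpm3-rs7* at 14 of 2103 (99.3%). In the last 300 bases of *Ftl1* lay 3 of the 4 differences, and in those of *Tpm3* 5 of the 14. In the coding windows below, from bases 692 to 721 of *Ftl1-201* and 634 to 663 of *Ftl1-ps1-202*, capitals mark the base that differs within the pair.
Ftl1-201: aaccatctgaccaacctccgcagggtggcG
Ftl1-ps1-202: aaccatctgaccaacctccgcagggtggcA

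Counted together, the pairs differed far less. *Ftl1* and *Ftl1-ps1* summed to 1392, 1409, and 1605 CPM in NZB, 1012, 1047, and 1115 in NZW, and 1123, 1180.5, and 1348 in NZBWF1 (means 1469 ± 118, 1058 ± 52.7, and 1217 ± 117), without scaling between mice. NZB remained above the others (exact permutation p = 0.00357 over the strains, the smallest possible), while NZBWF1 was at -0.04 on the log2 scale from the mean of its parents. *Tpm3-rs7* alone was at 206, 148, and 159 CPM in NZB, 5.34, 3.92, and 6.77 in NZW, and 108, 81.1, and 88.5 in NZBWF1 (NZB against NZW 4.97, SE 0.251, adjusted p = 1.63e-17). Its sum with *Tpm3* was 327 ± 40.2, 349 ± 11.5, and 311 ± 27.1 CPM (exact permutation p = 0.321). The levels of the single copies are uncertain where counting could split reads between them. *Hist1h4i* and *Rps2* belong to large families, and no sum over copies was made for them. *Hist1h4i*, a histone H4 gene, was at 10.3, 2.502, and 0 CPM in NZB and 114 to 131 in NZW (log2 fold change -5.24, SE 0.427, adjusted p = 2.96e-11), and *Rps2*, a ribosomal protein, at 1653 ± 112 against 4068 ± 369 CPM (-1.30, SE 0.115, adjusted p = 2.41e-10).

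Interferon-stimulated genes moved in both directions. Of 18 tested genes in this list 5 were called in NZB against NZW, 2 higher and 3 lower in NZB, against 1.96% of all genes, and the list's median log2 fold change was 0.11. *Ifitm2*, a membrane protein that restricts viruses, was at 149, 133, and 149.8 CPM in NZB, 1587, 1468, and 1709 in NZW, and 595, 782, and 976 in NZBWF1 (NZB against NZW -3.47, SE 0.161, adjusted p = 9.66e-17). Neutrophil markers were at 207 to 1058 CPM without members bearing signs of another lineage, and without them the *Ifitm2* difference between parents was -5.17 (adjusted p = 1.85e-24). *Mndal*, of the Ifi200 cluster, was at 15.5, 10.0, and 8.81 CPM in NZB against 109, 97.5, and 115 in NZW (-3.30, SE 0.308, adjusted p = 8.37e-10), and *Ifitm1* at 37.4 ± 37.6 against 636 ± 91.8 CPM (-4.41, SE 0.746, adjusted p = 0.0482), the last of which was lost in 11 of 21 alternatives, among them with each NZB or NZW mouse or NZBWF1 mouse 2 left out in turn.

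*Apobec3*, a cytidine deaminase that acts on retroviruses, was higher in NZB, at 175, 395, and 288 CPM against 33.2, 37.2, and 32.5 in NZW and 164, 168, and 191 in NZBWF1. The log2 fold change for NZB against NZW was 3.11 (SE 0.198, adjusted p = 2.96e-11), and NZBWF1 was above the mean of its parents' log values by 0.79 (SE 0.145, adjusted p = 0.0113). In CPM it was at 174 against a parental mean of 160.2. The call against the parents was lost in 7 of 22 alternatives, among them without NZB mouse 3, NZW mouse 1 or 3, or NZBWF1 mouse 2 or 3. *Ifi202b*, an interferon-inducible gene in a lupus susceptibility interval of NZB, had 1, 11, and 12 UMIs in the NZB mice, 0 in all 3 NZW mice, and 4, 14, and 21 in NZBWF1. With a floor of 3 UMIs over the strain, NZB was at least 44.1-fold and NZBWF1 at least 13.2-fold higher than NZW. Without members with signs of another lineage *Ifi202b* was not among the genes tested. The part of other cells in its UMIs was not tested.

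Further genes were low or at 0 in 1 parent. With 0 UMIs in all 3 NZW mice, NZB was at least 38.6-fold higher in *Htatip2*, 40.4-fold in *Fam57b*, 44.1-fold in *Gm37867*, and 68.0-fold in *BC023719*, against the same floor. *Gm35082* had 0 UMIs in NZB and 42, 83, and 59 in NZW, at least 11.1-fold lower in NZB, and the hybrid was near the NZB parent with 5, 4, and 3 UMIs. *Gm42031* (chr8:85125872-85132289), a lincRNA, was at 474, 485, and 476 CPM in NZB, 2.97, 4.41, and 1.35 in NZW, and 214, 173, and 267 in NZBWF1 (NZB against NZW 7.24, SE 0.235, adjusted p = 1.64e-22). In *1700097N02Rik*, a lncRNA, the hybrid was near the NZW parent, with 68.4, 81.1, and 90.4 CPM against 93.1, 101, and 105 in NZW and 0, 10.0, and 5.87 in NZB. *Ctse*, cathepsin E, was at 25.9 ± 13.6 CPM in NZB, 109 ± 15.9 in NZW, and 68.6 ± 14.6 in NZBWF1 (NZB against NZW -1.92, SE 0.272, adjusted p = 1.33e-05). Without members with signs of another lineage the *Ctse* difference was -3.12 (adjusted p = 2.47e-07), and the call was lost with equal numbers of members per mouse (adjusted p = 0.0779).

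Of 11 genes that the study itself names for B-cells or for several cell types, 10 were tested and all 10 were called in NZB against NZW (1.96% of all genes), 7 higher and 3 lower. Against the mean of the parents' log values 7 were called (0.168% of all genes), all higher in NZBWF1, but in CPM 3 of the 7 were above and 4 below the mean of the parents. The list was chosen by the study on these same mice and is not independent evidence.

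The 3 genes called lower in NZBWF1 than the mean of its parents were *Bcl2*, *Ctsc*, and *Tsc22d3*. *Ctsc*, cathepsin C, was at 149, 153, and 141 CPM in NZB, 61.1, 60.7, and 70.4 in NZW, and 56.7, 71.2, and 63.3 in NZBWF1, again with the hybrid at the NZW level (-0.59, SE 0.132, adjusted p = 0.0417). The call was lost in 18 of 22 alternatives, among them with each of the 9 mice left out in turn, and without members with signs of another lineage the difference between the parents was lost also (0.43, adjusted p = 0.501). *Tsc22d3*, a glucocorticoid-induced gene, was at 46.4, 67.5, and 58.7 CPM in NZB, 51.0, 39.7, and 37.2 in NZW, and 32.1, 29.7, and 25.2 in NZBWF1. It was the one among them with every hybrid mouse below every mouse of both parents (-0.83, SE 0.185, adjusted p = 0.0417), a call lost in 14 of 21 alternatives, among them with each mouse but NZB mouse 1 and NZBWF1 mouse 1 left out in turn. *Hmox1*, heme oxygenase, was at 16.0, 16.1, and 27.9 CPM in NZBWF1, above 8.81 to 12.5 in NZB and 7.12 to 8.33 in NZW. It passed against NZW (1.42, SE 0.289, adjusted p = 0.00626) and not against the mean of the parents (1.20, SE 0.294, adjusted p = 0.119). The call against NZW was lost in 6 of 18 alternatives, among them DESeq2 and without NZW mouse 1 or 2 or NZBWF1 mouse 3. *Hmox1* was not among the genes tested without members with signs of another lineage.

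**Figure D5:**
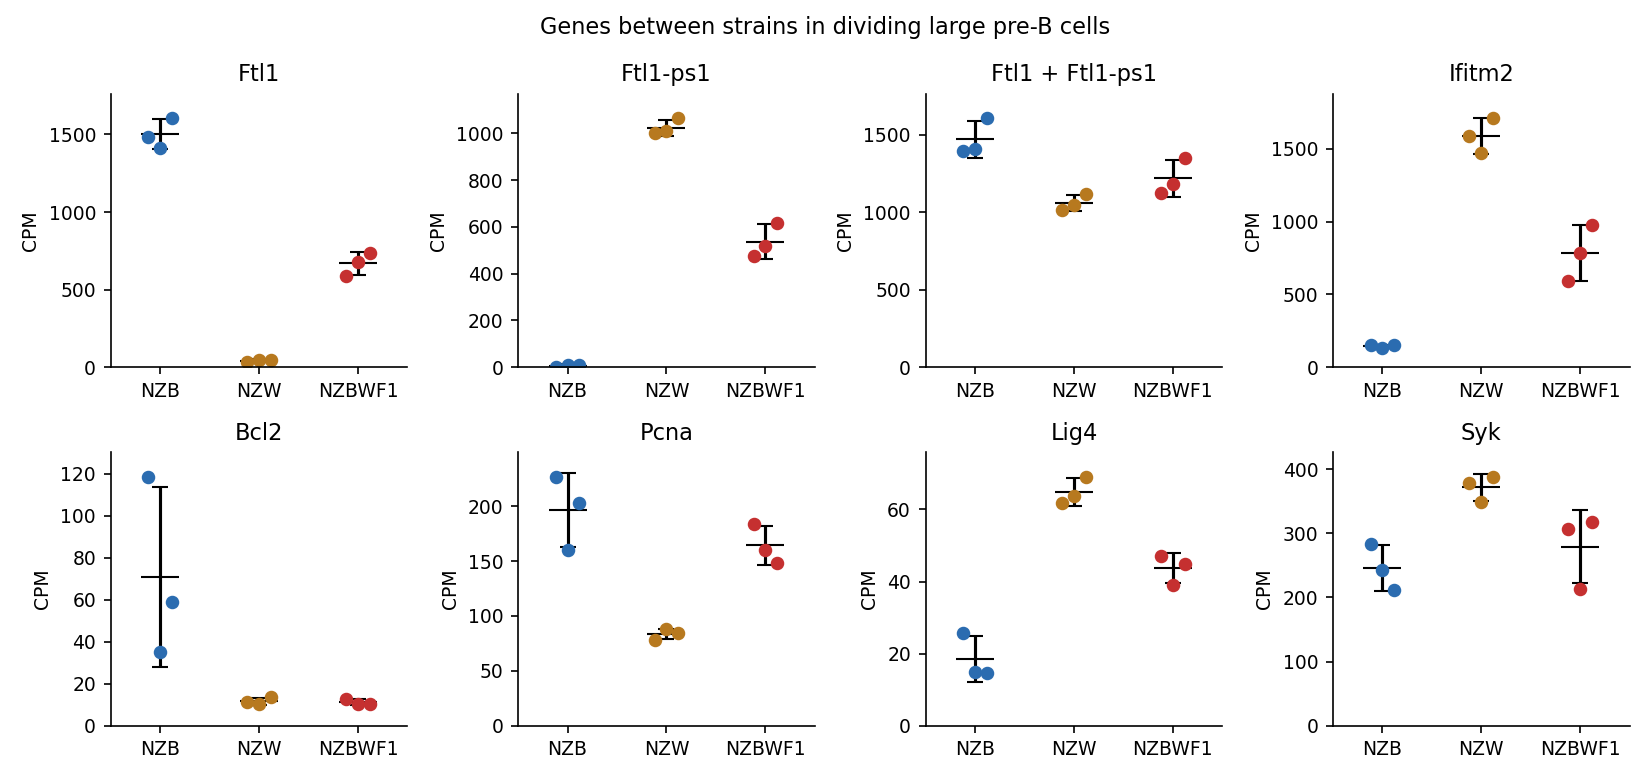
Each point is a mouse, the dash the strain mean, and the whisker 1 SD over 3 mice, in CPM summed over the dividing pre-B cells. *Ftl1* and *Ftl1-ps1* run in opposite directions, their sum is highest in NZB (1469 CPM against 1058 in NZW), NZB is highest in *Bcl2* (35.02 to 118 CPM), NZW is lowest in *Pcna* (78.3 to 87.7 CPM), and the hybrid lies between its parents in *Ifitm2* and *Lig4*.

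Whether a strain difference was particular to dividing pre-B cells was tested against the resting barcodes of the same mice. Of 8663 genes, 15 (0.173%) had a NZB against NZW difference that changed between the gates, 7 in the positive and 8 in the negative direction. *Ly6e*, a surface protein of immature lymphocytes, was at 669 CPM in NZB and 595 in NZW among dividing cells and at 526 and 1383 among resting ones (interaction log2 1.06, SE 0.168, adjusted p = 0.00102). *Cd72*, an inhibitory B-cell receptor, was at 228 and 209 CPM in dividing and 170.4 and 539 in resting barcodes (1.36, SE 0.241, adjusted p = 0.00502). In both the strains were close in dividing cells and apart in resting cells. The resting barcodes were taken here with no limit on *Jchain* or on other signs of another lineage. Of 3395 resting barcodes 2402 remained without such signs or *Siglech*, and of 3045 members 2553 remained without such signs. With signs of another lineage removed from both gates 47 genes were called, *Ly6e* and *Cd72* among them. Most of the 47 were ribosomal protein genes with a negative value. In the resting barcodes so cleaned, *Ebf1* was at 1670, 764, and 930 CPM in NZB and 2349, 2010, and 2566 in NZW. *Il7r* was at 182, 83.6, and 80.9 CPM in NZB and 427, 183, and 390 in NZW, while *Igkc* and *Ms4a1* overlapped. The part of stage within the resting gate in the strain differences was not tested. The *Ly6e* call was lost without NZW mouse 1 (adjusted p = 0.0535) and the *Cd72* call without NZB mouse 2 or 3 or NZW mouse 1 or 3 (highest adjusted p = 0.179). The count was 166 without NZB mouse 1, 33 without NZBWF1 mouse 3, 31 without NZBWF1 mouse 1, 25 without NZB mouse 2, 4 without NZW mouse 1, and 3 without NZB mouse 3. With NZBWF1 set against the mean of its parents, edgeR called 0 genes (0.00%), 307 had an unadjusted p under 0.05, and DESeq2 called 0 as well.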

How the data were processed

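Single cell RNA of 9 marrow libraries was measured with the 10x Genomics Chromium 3' v3.1 kit. The authors made the deposited counts with Cell Ranger 3.1.0 (demultiplexing with bcl2fastq 2.20, build mm10 per the submitters' processing notes): UMIs per gene and barcode, merged over libraries, whole numbers that are not normalized per cell. Whether merging equalized depth is a point not given in the sources used here. The barcode suffix was read as the row number in the deposited aggregation list, and columns without a mapped mouse numbered 0. Of 31053 gene identifiers 30934 were in GENCODE vM21, and 35 gene names stood for more than 1 identifier.

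UMIs were summed over the members of each mouse (206879 to 2666786) and tested with edgeR 4.0.16 in R 4.3.3 (TMM, filterByExpr, robust quasi-likelihood, 1 fit of 3 strains) with the contrasts given, the parents' mean as that of log values, and Benjamini-Hochberg adjustment over all genes at 0.05. CPM of the strain comparisons are TMM-scaled, those of stages, splits, marker lists, and copy sums are not. Each standard error was derived from F, as the fold change on the log2 scale over the root of F. Cell numbers were fitted in edgeR too, but without TMM or filterByExpr. The kept barcodes of each mouse, or those with the B-lineage sum, served as the total. Their p-values were adjusted over the cell groups within a contrast and not over genes. Single values were tested by exact permutation of the mice, with the sum of squares between the 3 strains as the statistic. The permutation of the share against the parents' mean used the size of that difference. P-values measure the spread between these mice. The comparison with resting barcodes used the mouse as a block. Doublets were scored per mouse with scanpy 1.11.5 (0.8% per 1000 barcodes) and kept in the main analysis. The edgeR procedures were tested on simulated data.

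The members and gene lists were chosen with earlier results of these data known. Named were the genes of the selection, of the pre-B receptor list (1 is not reported here), and of the study's own list, the 8 genes of smallest p per comparison, and up to 4 called genes of each other list. For the stages the 10 genes of largest fold each way were eligible, and genes of the surrogate light chain split, other stage genes, *Ctsc*, *Tsc22d3*, and *Ifitm1* were picked after their values were seen. Alternatives covered quality and member limits, doublets, thinning, equal numbers, DESeq2 1.42.0, low-count filters, a replicate block, and each mouse left out in turn. Leaving out members with signs of another lineage was added after the data were seen.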

Additional observations from a re-analysis of the deposited data

Results flagged for a closer look

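In 15 genes the difference between NZB and NZW was not the same in dividing pre-B cells as in resting barcodes of the same mice, by an interaction term in the edgeR fit. Each value is the NZB against NZW log2 fold change in dividing cells minus that in resting barcodes. In 7 genes it was positive: *Emid1* 7.86 (0 CPM in resting NZB barcodes, so that the fitted value is no size), *Plekhf2* 1.64, *Atp1b1* 1.37, *Cd72* 1.36, *Cecr2* 1.35, *Ifi27l2a* 1.12, and *Ly6e* 1.06. In 8 genes it was negative: *Kcnn4* -3.22, *Sapcd1* -2.76, *Creld2* -2.69, *Lman1* -1.83, *Nucb1* -1.56, *Cmc2* -1.48, *Spcs3* -1.30, and *Rplp1* -1.02.

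*Atp1b1*, a sodium pump subunit, was at 136 and 149 CPM in NZB and NZW dividing cells and at 95.04 and 369 CPM in resting barcodes. *Sapcd1* was at 35.6 and 35.1 CPM in dividing cells and at 107 and 22.2 CPM in resting barcodes, and *Rplp1*, a ribosomal stalk protein, at 4055 and 3837 CPM against 3471 and 2239 CPM. *Lman1*, *Creld2*, *Nucb1*, and *Spcs3* encode proteins of the secretory pathway and were higher in resting NZB barcodes, as *Creld2* at 210.0 CPM against 37.0 in resting NZW. Barcodes with signs of another lineage, *Jchain* among the signs, were then left out of both gates. *Lman1* (adjusted p = 0.935), *Creld2* (0.819), *Nucb1* (0.596), *Spcs3* (0.625), and *Cmc2* (0.286) were no longer called. *Kcnn4* was not tested, and the other 9 were called in the same direction. Of these 9, *Sapcd1* and *Rplp1* were called under each alternative run, whereas with 1 mouse left out *Atp1b1*, *Cd72*, *Cecr2*, *Emid1*, *Ifi27l2a*, and *Plekhf2* lost the call without NZB mouse 2 or 3, all of these but *Plekhf2* without NZW mouse 1, *Cd72*, *Cecr2*, and *Emid1* without NZW mouse 3, *Ifi27l2a* without NZW mouse 2, and *Ly6e* without NZW mouse 1.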

How the results depend on the processing

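With B-marked barcodes as the total, the log2 fold change in cell number of NZBWF1 was -0.051 (SE 0.338, adjusted p = 0.996) against the mean of the parents. Against NZB it was -0.047 (SE 0.394, adjusted p = 0.930), and for NZB against NZW -0.0083 (SE 0.394, adjusted p = 0.983). None of these was called. The higher share against the parents' mean was lost at 5% mitochondrial UMIs (0.62, adjusted p = 0.224) and in an exact permutation test of the share (0.80, p = 0.262). Leaving out 1 mouse gave 0.46 to 1.06 against the parents' mean, 1.31 to 1.91 against NZB, -0.39 to 0.21 against NZW, and -1.83 to -1.54 for NZB against NZW.

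Gene counts moved by over 1.5 times as follows. For NZB against NZW they were 93 with at least 10 counts in every mouse, 62 at 5% mitochondrial UMIs, 351 with looser member limits, 104 with members thinned to 1000 UMIs, 279 without a filter beyond 1 count, and 54 with 53 members per mouse. For NZBWF1 against NZB they were, in this order, 11, 10, 79, 23, and 61, with 22 at 2000 UMIs and 1000 genes and 19 with stricter limits. For NZBWF1 against NZW they were 30 with DESeq2, 19 with at least 10 counts, 35 at 2000 UMIs, 10 at 5% mitochondrial UMIs, 30 thinned, 94 without a filter, and 11 with equal numbers, and against the parents' mean 2 with at least 10 counts, 8 at 5% mitochondrial UMIs, 8 thinned, and 24 without a filter. Stricter settings tested fewer members or genes, and the cause was otherwise not tested. Leaving out 1 mouse gave 8 to 18, 13 to 77, 26 to 61, and 112 to 248 calls against the parents' mean, NZB, NZW, and between the parents. The interaction gave 43 calls with DESeq2, 47 with cleaned gates, 106 without a filter, and 3 to 166 without 1 mouse, and against the parents' mean 4 without a filter and 0 to 0 without 1 mouse. With 1 mouse left out, permutation p for S phase was 0.289 to 0.8, for G2 and mitosis 0.479 to 0.961, and for median UMIs 0.0643 to 0.486. For 76 called pairs of named gene and strain comparison, 1576 values under alternatives held 0 changes of sign and 248 losses of the threshold. For the 15 interaction genes, 45 of 185 values lost the threshold, and *Lman1* was reversed with cleaned gates (0.34, adjusted p = 0.935).

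With the replicate block the 4 comparisons called 18, 57, 71, and 201 genes. Correlations of the deviations of same-numbered mice ran from -0.282 to 0.144 for pairs with NZB, so that the numbers were not taken as pairs over the 3 strains. NZW and NZBWF1 mice correlated best with their own number (0.289, 0.357, 0.230), a hint from the data alone. The interaction already had the mouse as its block. With 3 mice per strain and 53 members in NZB mouse 1, few UMIs lay behind low genes in NZB. Floors cover counting error only.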
